A study of Homo sapiens with 10 samples.

Results

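The genes described here carry the symbols of mitochondrial ribosomal proteins. They were chosen by symbol, as every protein-coding gene of GENCODE 44 named MRPL or MRPS followed by a number and at most 1 letter, and 78 of the 78894 genes in the deposited table met that rule, 49 with MRPL symbols (large subunit) and 29 with MRPS symbols (small subunit). All 78 passed the filter on low values (normalised counts no lower than 10 in 3 or more of the 10 libraries) and were tested together with the other genes kept, 29045 in all. The series profiled poly(A) RNA of HEK293T cells, a human embryonic kidney line, by bulk RNA-seq. Cells in 0X-Cys (2 libraries) had spent 24 h in medium without cysteine, and cells in 1X-Cys (4 libraries) were kept in the control medium. Cells in 10X-Cys (4 libraries) received medium with 10 times the cysteine. The methods give a series of 3 media on 1 cysteine- and methionine-deficient base, and separately a starvation assay with dialysed serum. For RNA-seq they refer back to the amino acid starvation treatment, without stating the recipe of each medium. The media may thus have differed in more than cysteine. The comparisons ask how the transcripts of this organelle's translation machinery respond when cysteine is absent and when it is in excess.

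Mitochondria keep their own ribosome, which makes the few core subunits of the respiratory chain that mitochondrial DNA encodes. Its ribosomal RNAs also come from mitochondrial DNA, whereas every one of its proteins is encoded in the nucleus, made by cytosolic ribosomes and imported. Many of these proteins descend from bacterial ribosomal proteins and others exist only in mitochondria. The 78 genes are scattered over 21 chromosomes.

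Library depth ran from 34836014 to 61654861 reads on genes, and a member received between 385 and 12740 reads in a library, so counting error was small for each of them. The labels call the libraries biological replicates, while the methods describe wells of 1 cell line, so p-values measure the spread between such cultures. Of the line's markers, VIM lay between 25564 and 36307, NEFM between 12200 and 15838 and PAX2 between 103 and 366 normalised counts, whereas PTPRC did not exceed 4.36, CD3E was at 0, and ALB and PECAM1 did not exceed 21.0 and 13.6. In bulk RNA, fewer cells and less RNA per cell cannot be told apart.

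Excess cysteine was accompanied by lower transcript levels across most of the mitochondrial ribosome. In 10X-Cys against 1X-Cys, 55 of the 78 genes fell (70.5%), 3 rose and 20 did not pass the test, at a limma adjusted p of 0.01 or less. The median log2 fold change of the members was -0.40, with a range from -1.37 to 0.30, beside a median of 0.01 over all genes tested. Among all genes 22.9% were called lower and 23.1% higher. Because the members are well expressed, they were also set beside the 8414 protein-coding genes at or above the level of the lowest member in 1X-Cys, of which 41.9% were called lower and 27.3% higher, with a median of -0.09. The decrease was seen in each library of the group. The median deviation of the members from the 1X-Cys mean was -0.43, -0.40, -0.41 and -0.41 on the log2 scale in the 4 libraries of 10X-Cys, and 0.07, -0.04, 0.00 and -0.02 in those of 1X-Cys. Together the members took 0.451% ± 0.00748 of all reads in 1X-Cys and 0.37% ± 0.00341 in 10X-Cys (SD, n = 4 each).

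The largest decrease in 10X-Cys, in the values as deposited, was that of MRPL12 (chr17:81703367-81707517, plus strand, GRCh38), the homologue of the bacterial stalk protein L7/L12, which recruits translation factors to the large subunit. Its normalised counts were 5236, 4510, 5832 and 4497 in 1X-Cys and 1881, 1920, 1922 and 1976 in 10X-Cys. The groups lay far apart, with the highest 10X-Cys library below every 1X-Cys library. This gave a log2 fold change of -1.37 ± 0.068 (SE, adjusted p = 3.54e-11), so the mean fell by 61.4%. MRPL12 was also the member with the highest level per kilobase of exon in 1X-Cys (4974 per kb). Exon length here counts all annotated exons of a gene together, so this ranking depends on the annotation. It was 1009 bases for MRPL12, as in its canonical transcript, but 2549 against 1483 bases for MRPL37. Of the exon bases of MRPL12, 69.5% are shared with an unnamed gene on the same strand (ENSG00000262660). Part of the reads could thus have been assigned to either gene or discarded.

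MRPS28 (chr8:79918717-80030289, minus strand), a small-subunit protein, was second. It measured 1049, 856, 944 and 894 in 1X-Cys and 334, 418, 416 and 336 in 10X-Cys, a log2 fold change of -1.32 ± 0.0903 (adjusted p = 2.05e-09). No library of one group reached the other, although 35.8% of the exon bases of MRPS28 are also shared with a same-strand gene. MRPL24 (chr1:156737303-156741590, minus strand), whose bacterial homologue sits near the exit of the peptide tunnel, overlaps no other annotated exon. It fell from 2135, 2023, 2147 and 2028 to 814, 959, 996 and 902, a log2 fold change of -1.19 ± 0.0622 (adjusted p = 7.24e-11). The remaining members that fell at least 2-fold were MRPL41 and MRPS34, both specific to the mitochondrial ribosome. MRPL41 (chr9:137551879-137552555, plus strand) went from 1490, 1527, 1536 and 1527 to 671, 679, 712 and 749 (log2 fold change -1.11). MRPS34 (chr16:1771890-1773150, minus strand) went from 4897, 4600, 4820 and 4746 to 2085, 2232, 2296 and 2310 (log2 fold change -1.10), with 31.2% of its exon bases shared with EME2 on the other strand. In these 5 genes the lowest 1X-Cys library stood above the highest 10X-Cys library by a margin wider than the spread within either group. With the length and GC trends described below removed, MRPS28 was the lowest (-1.29 with the trend of all genes and -1.03 with that of protein-coding genes, against -1.26 and -1.01 for MRPL12), and 3 and 2 members fell at least 2-fold. MRPL41 and MRPS34 were then at -0.95 and -0.98, or at -0.59 and -0.73, and all 5 genes were still called.

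Further genes named for their decrease in 10X-Cys or in 0X-Cys were MRPS12, MRPL27, MRPL34, MRPS17 and MRPS7. MRPL27 and MRPS7 were named by their rank in 0X-Cys, so the list does not rank the decreases in 10X-Cys. MRPS12, the homologue of S12 at the decoding centre, measured 1646, 1599, 1528 and 1682 in 1X-Cys and 800, 853, 868 and 839 in 10X-Cys (log2 fold change -0.94 ± 0.0544). MRPL27, whose bacterial homologue reaches towards the peptidyl transferase centre, measured 2291, 2237, 2122 and 2349 against 1215, 1266, 1319 and 1262 (-0.83 ± 0.0505). MRPL34, MRPS17 and MRPS7, homologues of L34, S17 and S7, changed by -49.2%, -47.7% and -45.7%. Each of these had adjusted p-values of 9.79e-09 or smaller and groups that did not overlap. MRPL51, a mitochondria-specific protein with a high level per kilobase in 1X-Cys (2960 per kb), fell by 29.2%. At the other end of that scale, MRPL22, the homologue of a protein that lines the exit tunnel, and MRPS27, a pentatricopeptide repeat protein, had levels per kilobase of exon of 268 and 237. Their annotated exons (5264 and 19524 bases) exceed their canonical transcripts (3173 and 2770 bases). The low level of MRPS27 was thus not a low count, as its mean in 1X-Cys was 4620. MRPL22 and MRPS27 changed by -21.8% and -27.6%.

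**Figure D1:**
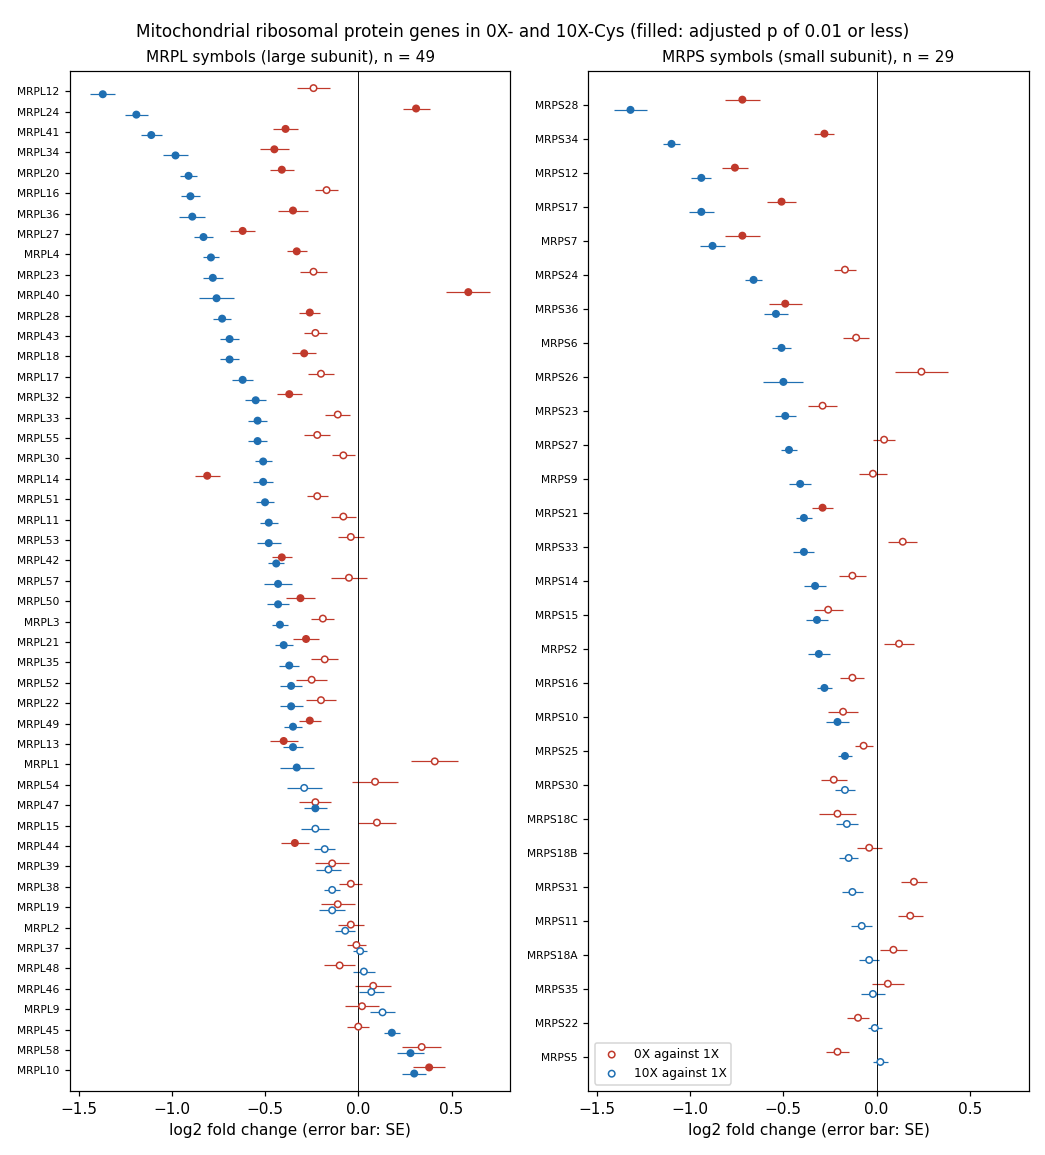
Log2 fold change (x axis, error bar SE) of each of the 49 MRPL genes (left) and 29 MRPS genes (right) in 0X-Cys (red) and 10X-Cys (blue) against 1X-Cys, ordered by the value in 10X-Cys; filled points passed an adjusted p of 0.01. The blue points reach from -1.37 (MRPL12) to 0.30 (MRPL10), with 55 filled points below 0 and 3 above, while 23 red points are filled below 0 and 3 above.

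Not every member followed. MRPL10 (chr17:47823272-47831541, minus strand), which forms the base of the stalk and holds MRPL12, measured 2482, 2220, 2540 and 2004 in 1X-Cys and 2781, 2831, 2954 and 2755 in 10X-Cys. It rose by 0.30 ± 0.064 on the log2 scale (adjusted p = 0.000745), and the groups did not overlap. MRPL45, which anchors the ribosome to the inner membrane, rose by 0.18 ± 0.0438 (adjusted p = 0.00248), from 2692, 2593, 2495 and 2538 to 2858, 2838, 2974 and 2985. MRPL58, a peptidyl-tRNA hydrolase that rescues stalled ribosomes and is itself built into the large subunit, measured 1039, 950, 1196 and 923 against 1151, 1253, 1284 and 1284. Its log2 fold change was 0.28 ± 0.0744 (adjusted p = 0.00392), and 1 library of 1X-Cys lay within the range of 10X-Cys. The call of MRPL10 was lost without the filter on low values (0.30). MRPL45 no longer passed without 10X-Cys replicate 3 or replicate 4 (log2 fold change 0.17 and 0.16), and MRPL58 did not pass without 1X-Cys replicate 2 or 4, without 10X-Cys replicate 2, 3 or 4, or without the filter on low values (0.23 to 0.28).

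The 20 genes not called in 10X-Cys included some of the most abundant. MRPL37, a mitochondria-specific protein with a level of 3287 per kb, measured 8713, 8100, 8525 and 8174 in 1X-Cys and 8178, 8341, 8384 and 8774 in 10X-Cys, a log2 fold change of 0.01 ± 0.0383 with ranges that overlapped. MRPS5, the homologue of S5, and MRPL46 gave 0.02 ± 0.0421 and 0.07 ± 0.0675. With the protein-coding length and GC trend described below removed, MRPL37 (0.18) and MRPL46 (0.33) were called higher. MRPL37 was also called higher when every library was scaled to the same total (0.11). The 3 paralogues MRPS18A, MRPS18B and MRPS18C, homologues of 1 bacterial protein that occupy different sites in the ribosome, had log2 fold changes of -0.04 ± 0.0545, -0.15 ± 0.0508 and -0.16 ± 0.0585, none of them called. MRPS30, which sits in the large subunit of the assembled ribosome despite its symbol, gave -0.17 ± 0.0521 (adjusted p = 0.0119) and passed in 4 of the alternative settings. MRPS18A shares 50.9% and MRPS18C 40.2% of its exon bases with a gene on the other strand.

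Upon cysteine starvation fewer members were called, with 2 libraries in place of 4. In 0X-Cys against 1X-Cys, 23 of the 78 genes fell (29.5%), 3 rose and 52 did not pass. The median log2 fold change of the members was -0.18, ranging from -0.81 to 0.59, beside 0.00 over all genes tested. Of all genes, 8.51% were called lower and 7.39% higher. Of the protein-coding genes in the same range of levels, 20.3% were called lower and 9.51% higher, with a median of -0.06. The median deviation from the 1X-Cys mean was -0.20 in replicate 1 and -0.13 in replicate 2 of 0X-Cys, and the members took 0.414% ± 0.00635 of all reads (SD, n = 2). With 2 starved libraries the calls depended on single libraries. Without 0X-Cys replicate 1 or replicate 2, which leaves 1 starved library, the median of the members was -0.13 and -0.20. Without 1X-Cys replicate 2 there were 16 members called, all lower, while the share of all genes called lower went from 8.51% to 5.15%. Without the filter on low values 5 members were called, all lower, and 0.604% of all genes were called lower. The edgeR and DESeq2 tests on the reads recovered from the table called 25 and 32 members, beside 8.29% and 9.77% of all genes called lower.

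MRPL14 (chr6:44113451-44127452, minus strand), the homologue of a bacterial protein at the interface of the subunits, showed the largest decrease upon starvation. Its normalised counts were 1024 and 1037 in 0X-Cys and 1852, 1739, 1798 and 1863 in 1X-Cys, a log2 fold change of -0.81 ± 0.0668 (SE, adjusted p = 2.83e-06). MRPS12 (chr19:38930944-38933168, plus strand) measured 949 and 951 in 0X-Cys, against the 1528 to 1682 of 1X-Cys (-0.76 ± 0.0702, adjusted p = 6.5e-06). Both starved libraries of either gene lay well below every control library. MRPS28 with 571 and 558, MRPS7 with 2597 and 2814 and MRPL27 with 1410 and 1520 also stayed below all 4 control libraries, with log2 fold changes of -0.72 ± 0.0928, -0.72 ± 0.0929 and -0.62 ± 0.0678. MRPS17 fell by 29.7% and MRPL34 fell by 26.7%. MRPS36 fell by 28.7%, from 1097, 987, 964 and 978 to 672 and 764. This last protein was first listed with the ribosome and is now known as a component of the 2-oxoglutarate dehydrogenase complex. By its symbol MRPS36 stayed among the MRPS genes in all counts. MRPL41 and MRPS34, which fell over 2-fold in excess cysteine, changed by -23.4% and -17.4% upon starvation. The calls of MRPL34, MRPL41 and MRPS34 in starvation were lost when either 0X-Cys library was left out, and those of MRPS17 and MRPS36 when replicate 1 was. With the protein-coding trend removed MRPL41 (-0.25) and MRPS34 (-0.18) also missed the threshold, and MRPS34 missed it with the trend of all genes removed (-0.21).

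The 3 members that rose upon starvation were MRPL40, MRPL10 and MRPL24. MRPL40 (chr22:19432545-19436075, plus strand), a mitochondria-specific protein, measured 1760 and 1792 in 0X-Cys and 1250, 1051, 1452 and 1015 in 1X-Cys, a log2 fold change of 0.59 ± 0.117 (adjusted p = 0.00223). MRPL10 measured 2964 and 3039 against 2004 to 2540 (0.38 ± 0.0859, adjusted p = 0.00474), and MRPL24 measured 2379 and 2795 against 2023 to 2147 (0.31 ± 0.0724, adjusted p = 0.00625). In each case both starved libraries were above all 4 control libraries. None of the 3 calls passed when either 0X-Cys library or 1X-Cys replicate 2 was left out, and the log2 fold change of MRPL24 was 0.42 without replicate 1 and 0.19 without replicate 2 of 0X-Cys. MRPL12, the most reduced member in excess cysteine, measured 4083 and 4345 in 0X-Cys, below every 1X-Cys library, but its log2 fold change of -0.24 ± 0.0908 was not called (adjusted p = 0.061). With 2 libraries against 4, an exact 2-sided permutation test of a single gene cannot give a p below 0.067, and with 4 against 4 it cannot give one below 0.029.

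**Figure D2:**
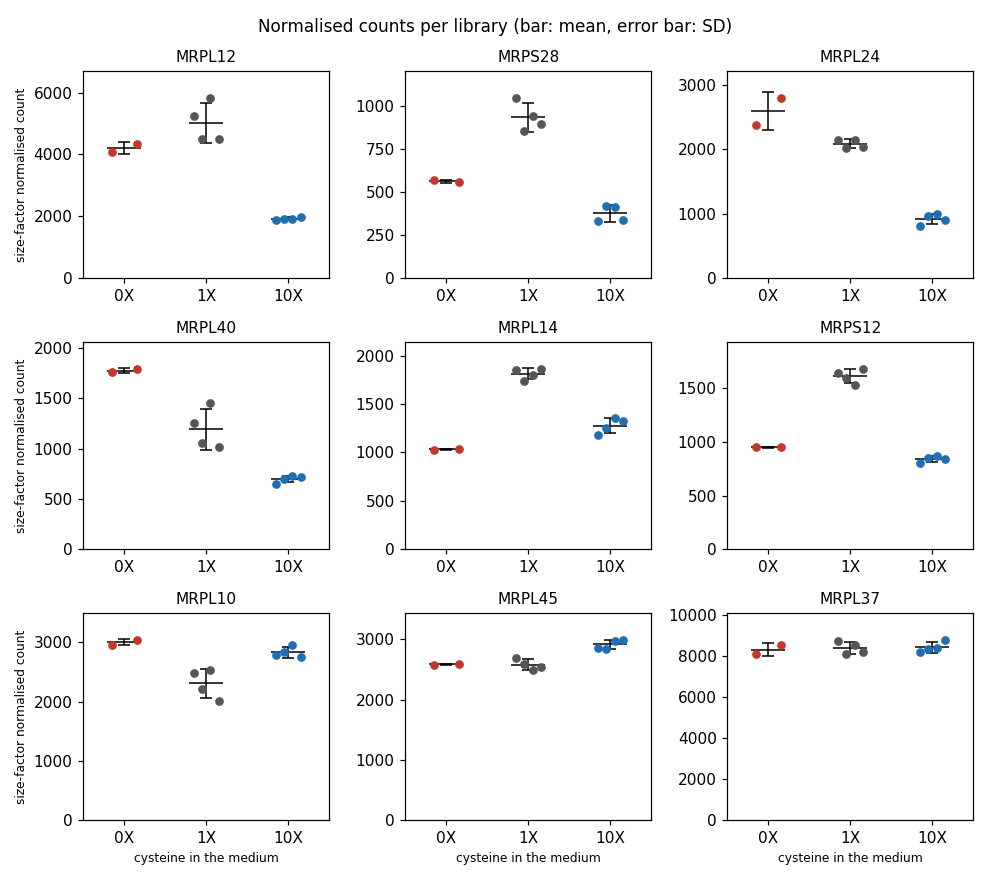
Size-factor normalised counts (y axis, from 0) of 9 members in each library of 0X-Cys (red, 2 libraries), 1X-Cys (grey, 4) and 10X-Cys (blue, 4), with the group mean and SD in black. MRPL24 and MRPL40 lie above the control in 0X-Cys and below it in 10X-Cys, MRPL14 and MRPS12 lie below it in both media, MRPL10 lies above it in both, and MRPL37 spans 8083 to 8774 over all 10 libraries.

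Both media were compared with the same 1X-Cys libraries, so the 2 sets of calls are not independent. MRPL24 and MRPL40 were called higher in 0X-Cys and lower in 10X-Cys, MRPL10 was called higher in both, and MRPL45 and MRPL58 were called higher in 10X-Cys and not called in 0X-Cys (0.00 ± 0.0597 and 0.34 ± 0.104 there). Of the members named for a decrease, MRPL14, MRPL27, MRPL34, MRPL41, MRPS7, MRPS12, MRPS17, MRPS28, MRPS34 and MRPS36 were called lower in each comparison, with log2 fold changes from -0.81 to -0.28 in 0X-Cys and from -1.32 to -0.51 in 10X-Cys.

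The direct comparison of 0X-Cys with 10X-Cys tested the difference between starvation and excess. It called 42 members higher in 0X-Cys, 3 lower and 33 neither way, with a median log2 difference (0X-Cys minus 10X-Cys) of 0.20. Over all genes, 23.6% were called higher and 24.4% lower, and among the protein-coding genes of the same levels 37.1% and 31.9%. The trends on transcript length and GC content described below were also removed. The calls were then 38 higher and 13 lower (trend of protein-coding genes) or 45 higher and 7 lower (trend of all genes). Over all genes, 21.6% were higher and 28.9% lower with the first trend removed, and 24.2% and 24.5% with the second. Among the protein-coding genes of the same levels these shares were 37.8% and 31.4%, or 41.2% and 28.8%. As deposited, at least 2-fold higher in 0X-Cys were MRPL24 (1.49 ± 0.073 on the log2 scale, adjusted p = 9.14e-15), MRPL40 (1.35 ± 0.0637, adjusted p = 4.68e-15) and MRPL12 (1.13 ± 0.0478, adjusted p = 5.6e-16). The lowest 0X-Cys library of MRPL24, at 2379, was far above the highest 10X-Cys library at 996. MRPL14, MRPL45 and MRPS5 were the members lower in 0X-Cys than in 10X-Cys, by log2 differences of -0.31 ± 0.0627, -0.17 ± 0.0459 and -0.23 ± 0.0482. The call of MRPL45 was lost without either 0X-Cys library, with the replicate block (-0.14) and without the filter on low values, that of MRPS5 without 0X-Cys replicate 1 (-0.15) and without the filter, and that of MRPL14 without the filter. The level of MRPL14 was thus lower without cysteine than with 10 times as much, while for MRPS12 the 2 media differed by 0.18 ± 0.0638 (adjusted p = 0.0198), which did not pass.

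Large and small subunit genes were set side by side by their calls and medians. In 10X-Cys, 35 of 49 MRPL genes fell (71.4%) and 3 rose (median log2 fold change -0.43). Of 29 MRPS genes, 20 fell (69.0%) and none rose (median -0.33). Of the protein-coding genes of the same levels, 41.9% were called lower. The difference of the subunit medians was -0.10, and it was -0.04 when MRPS18A and MRPS30 were counted with the large subunit, where their proteins are found. In 0X-Cys, 16 MRPL genes fell (32.7%) and 3 rose, with a median of -0.20. Of the MRPS genes 7 fell (24.1%) and none rose, with a median of -0.13. The MRPS share lay near the 20.3% called lower among the protein-coding genes of the same levels. The difference of the subunit medians in 0X-Cys, -0.07, came to 0.00 without 0X-Cys replicate 2 and to 0.03 over the members with no exon overlap. The genes of a subunit are not replicates of a condition, so these differences carry no test. The 5 genes that rose in 1 medium or both had MRPL symbols in the values as deposited, whereas MRPS18A (0.22) and MRPS22 (0.17) were called higher in 10X-Cys once the protein-coding trend was removed.

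Transcript length moved with the change in 10X-Cys. The median canonical transcript of a member had 1242 bases, against 3586 bases for the protein-coding genes of the same levels. Across the 78 members, the log2 fold change in 10X-Cys and transcript length had a Spearman rho of 0.44, and across the 8414 protein-coding genes it was 0.27. These points share the same libraries, and GC content moved with the change too (rho -0.28 and -0.22). Among members under 1000 bases 23 of 26 fell, with a median of -0.68, while 70.1% of the protein-coding genes of that length were called lower, with a median of -0.42. From 1000 to 2000 bases 17 of 34 members fell (median -0.23, background 56.3% and -0.24). At 2000 bases or more 15 of 18 fell (median -0.36, background 36.7% and -0.04).

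**Figure D3:**
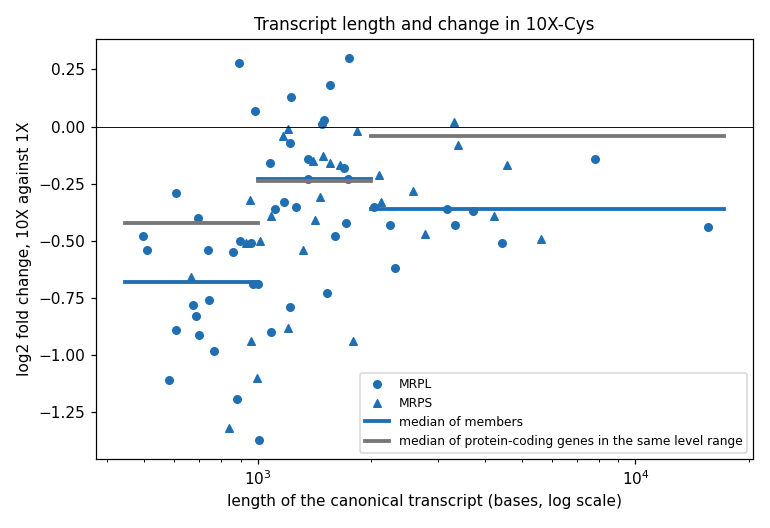
Log2 fold change in 10X-Cys against 1X-Cys (y axis) by length of the canonical transcript in bases (x axis, log scale) for the MRPL (circles) and MRPS genes (triangles). Horizontal lines are medians under 1000, from 1000 to 2000 and from 2000 bases, at -0.68, -0.23 and -0.36 for the members (blue) and -0.42, -0.24 and -0.04 for protein-coding genes of the same levels (grey).

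When each library's trend on transcript length and GC content, fitted over the protein-coding genes, was removed, 45 members (57.7%) were called lower and 8 higher in 10X-Cys and the median was -0.25. Under that setting 21.0% of all genes were called lower and 28.4% higher (median 0.11), and of the protein-coding genes of the same levels 43.5% were called lower and 25.6% higher (median -0.10). When the trend was fitted over genes of every type, 54 (69.2%) were called lower and 3 higher and the median was -0.40, beside 23.6% lower over all genes and 46.9% lower (median -0.13) over the protein-coding genes of the same levels. The part of length and GC content in the decrease was not tested further. Scaling every library to the same total moved the median of all genes in 10X-Cys from 0.01 to 0.12. Under that scaling 51 members were lower and 5 higher, with a median of -0.30, and the calls over all genes were 8406 higher and 5196 lower, against 6721 and 6651 as deposited. In 0X-Cys, the rho with length was 0.19 across the members and 0.08 across the protein-coding genes.

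The machinery around these proteins was described by the same counts and medians. Of the 5 mitochondrial ribosomal proteins that carry other symbols, 4 fell in 10X-Cys (median log2 fold change -0.57) and 3 in 0X-Cys (median -0.32), and none rose. AURKAIP1 went from 2831 ± 154 normalised counts in 1X-Cys (SD, n = 4) to 1617 ± 80.2 in 10X-Cys (n = 4) and 2047 ± 46.7 in 0X-Cys (n = 2). PTCD3 and CHCHD1 fell in both media as well, by 0.60 and 0.57 on the log2 scale in 10X-Cys and by 0.34 and 0.32 in 0X-Cys. DAP3, the GTP-binding protein of the small subunit, gave -0.10 ± 0.0428 in 10X-Cys and -0.14 ± 0.0558 in 0X-Cys, neither of them called. Among 26 factors of ribosome assembly and ribosomal RNA modification, 13 fell and 4 rose in 10X-Cys (median -0.15), and 4 fell and 1 rose in 0X-Cys (median -0.01). Among these factors the ribosomal RNA methyltransferase MRM1 had the largest decrease (-1.22 ± 0.102 in 10X-Cys). The methyltransferase METTL15 rose in both media (0.50 in 10X-Cys and 0.53 in 0X-Cys). MRM3, RPUSD4 and TRMT61B, which modify mitochondrial RNA, were called lower in both.

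Of 16 mitochondrial translation factors and regulators, 10 fell (62.5%, beside 41.9% of the protein-coding genes of the members' levels) and 3 rose in 10X-Cys (median -0.28). In 0X-Cys 4 fell (25.0%) and 1 rose (median -0.13). The share in 0X-Cys lay near the 20.3% called lower among the protein-coding genes of the members' levels. The elongation factors TUFM and TSFM fell in both media, by 0.35 and 0.65 on the log2 scale in 10X-Cys and by 0.25 and 0.39 in 0X-Cys, as did the RNA-binding protein SLIRP (0.68 and 0.31). A pair of factors changed in opposite directions. The initiation factor MTIF2 rose by 0.28 in 0X-Cys and fell by 0.25 in 10X-Cys, and the release factor MTRF1L fell by 0.53 in 0X-Cys and rose by 0.44 in 10X-Cys. Both ribosomal RNAs of mitochondrial DNA fell in 10X-Cys, with log2 fold changes of -3.45 for MT-RNR1 and -3.14 for MT-RNR2. These libraries were selected for poly(A) tails, which does not capture ribosomal RNA in proportion to its amount. In 0X-Cys MT-RNR1 fell by 0.50 and MT-RNR2 gave -0.17 ± 0.0672 (adjusted p = 0.0706).

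Cytosolic ribosomal proteins, whose transcripts are shorter still (median 785 bases), went the other way in 10X-Cys. There 70 of 77 rose (90.9%, beside 27.3% of the protein-coding genes of the members' levels) and 1 fell (median 0.25). In 0X-Cys 7 rose (9.09%, beside 9.51% of the protein-coding genes of the members' levels) and 1 fell (median 0.05). The 81 nuclear-encoded respiratory chain subunits had a median transcript of 763 bases. In 10X-Cys 74 fell (91.4%, beside 41.9% of the protein-coding genes of the members' levels) and 1 rose (median -0.50). In 0X-Cys 25 fell (30.9%, beside 20.3%) and 1 rose (median -0.14). The signs of these medians were the same with equal totals, with quantile normalisation and with either trend removed, whereas the median of the assembly factors in 0X-Cys was -0.01 as deposited and 0.01 with equal totals.

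**Figure D4:**
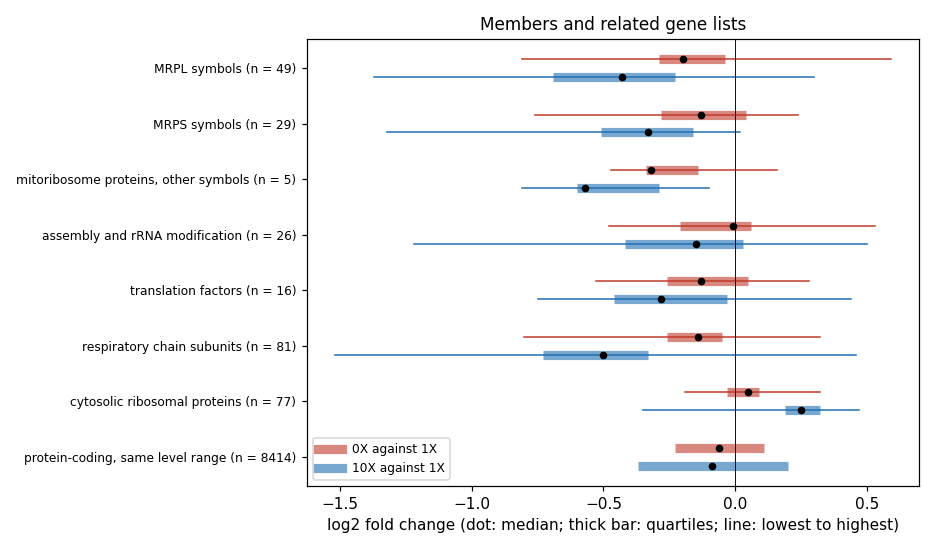
Log2 fold change (x axis) in 0X-Cys (red) and 10X-Cys (blue) against 1X-Cys for the MRPL and MRPS genes, 5 related gene lists and the 8414 protein-coding genes at or above the level of the lowest member. Dots are medians, thick bars quartiles and thin lines the lowest to highest gene (not drawn for the last row). The medians in 10X-Cys are -0.43 and -0.33 for the MRPL and MRPS genes, -0.50 for respiratory chain subunits and 0.25 for cytosolic ribosomal proteins.

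Many members share exon sequence with a neighbour, and reads that fall on more than 1 gene were discarded according to the methods. Of the 78 genes, 41 share exon bases with another annotated gene, 18 of them on the same strand. The 37 members with no such overlap gave 26 lower and 3 higher in 10X-Cys (median -0.39) and 11 lower and 3 higher in 0X-Cys (median -0.18). GENCODE 44 lists 81 pseudogenes under the names of 36 members, whose reads may be split or lost among near-identical copies. The 42 members without one gave 33 lower and 2 higher in 10X-Cys (median -0.50) and 14 lower and 2 higher in 0X-Cys. MRPL40, MRPL45, MRPS17, MRPS36 and MRPS18A, MRPS18B and MRPS18C are among those with pseudogenes.

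Some of the members have features of their start sites that the choice by symbol did not use. A protein-coding gene pointing the other way lay within 1000 bases of the start of 17 members (21.8%), against 8.54% of the 20046 protein-coding genes of GENCODE 44. That background was not limited to expressed genes or to the members' range of levels. MRPL46 and MRPS11, one gene of each subunit, start 63 bases apart, MRPL36 and MRPL47 each start 41 bases from a gene of respiratory complex I (NDUFS6 and NDUFB5), MRPS12 starts 181 bases from the seryl-tRNA synthetase gene SARS2, and MRPL49 starts 6 bases from FAU, which encodes a cytosolic ribosomal protein.

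RefSeq promoter windows (GRCh38.p14, 250 bases before to 50 after the start) were matched for 69 of the 78 members and 15344 protein-coding genes, and 5 short motifs were searched on both strands. The 15344 genes were not limited to expressed genes or to the members' range of levels. YY1 and ETS-family factors are known regulators of nuclear genes for mitochondrial proteins. The YY1 motif AAGATGGCG was found in 13 of the 69 members (18.8%) and in 2.81% of the 15344 promoters. In most of the members with it the motif lay just downstream of the start, as the following stretches of 30 bases show, written 5′ to 3′ on the gene's strand with the motif in capitals. They are given because the same letters recur in genes of both subunits within a short distance of the start.
MRPL38 (chr17:75904859-75904888, minus strand): ggccggagggAAGATGGCGgcgccctggtg
MRPL42 (chr12:93467512-93467541, plus strand): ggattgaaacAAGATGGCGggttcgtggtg
MRPL46 (chr15:88467361-88467390, minus strand): gggagaacgaAAGATGGCGgcgcccgtaag
MRPL50 (chr9:101398576-101398605, minus strand): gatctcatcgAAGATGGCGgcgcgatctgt
MRPS10 (chr6:42217833-42217862, minus strand): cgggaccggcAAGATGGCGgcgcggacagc
MRPS18A (chr6:43687763-43687792, minus strand): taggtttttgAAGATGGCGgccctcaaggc
MRPS18B (chr6:30617853-30617882, plus strand): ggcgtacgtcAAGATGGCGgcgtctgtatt
MRPS24 (chr7:43869479-43869508, minus strand): cgcttggcccAAGATGGCGgcctccgtgtg
MRPS30 (chr5:44808950-44808979, plus strand): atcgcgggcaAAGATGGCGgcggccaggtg
The median log2 fold changes of members with the motif were -0.36 in 10X-Cys and -0.20 in 0X-Cys, and those of the other members with a window were -0.45 and -0.14. Of the 13 members with the motif, 8 were called lower in 10X-Cys, MRPL42 and MRPS24 among them. The others, MRPL38, MRPL46, MRPS18A, MRPS18B and MRPS30, were not called.

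The ETS motif CCGGAAGT was found in 11 of the 69 members (15.9%) and in 6.29% of all promoters. Of these 11 members, 9 were called lower in 10X-Cys, while MRPL38 (-0.14) and MRPS22 (-0.01) were not called. The motif is shown for 4 of the members called lower. It is written in the orientation of the gene, so that it reads ACTTCCGG where it lies on the opposite strand.
MRPL27 (chr17:50373174-50373203, minus strand): acttttcgagaCCGGAAGTgagtgatcgaa
MRPL20 (chr1:1407319-1407348, minus strand): cgaccttcgccCCGGAAGTatcgcaggggc
MRPL51 (chr12:6493364-6493393, minus strand): ggcgctccaaaACTTCCGGcaggcggaccg
MRPS34 (chr16:1773136-1773165, minus strand): ctcttccggtgACTTCCGGccggaccgctg
The median log2 fold change in 10X-Cys was -0.48 for members with the ETS motif and -0.40 for those without. Most members fell in 10X-Cys, and a link between this motif and the decrease was not tested. The NRF1 motif GCATGCGC was found in 6 members (8.7%, against 4.31% of promoters) and the SP1 motif GGGGCGGGG in 16 (23.2%, against 22.7%). The motif TGATGCAA, bound by ATF4 with C/EBP factors in amino acid responses, was in none of the 69 windows and in 0.684% of all promoters. These matches describe letters in a window, and binding was not measured in this series.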

How the data were processed

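Poly(A) RNA of HEK293T cells was sequenced in 10 libraries (0X-Cys n = 2, 1X-Cys n = 4, 10X-Cys n = 4). According to the methods and the submitters' processing notes, the authors aligned reads to GRCh38 with STAR 2.7.10b, counted them per gene (the methods name featureCounts and the notes HTSeq, with reads on several genes discarded, and the strand setting is not given in the sources used here) and divided the counts by DESeq2 size factors. The deposited values are therefore scaled counts (a signal, not raw counts). Whole reads were recovered for 100% of values at a tolerance of 0.01, and library totals give the depth.

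Genes that reached a value of 10 in 3 or more libraries were tested with limma 3.58.1 (R 4.3.3, empirical Bayes with trend) on log2(value + 1), each comparison with its own groups, with Benjamini-Hochberg adjustment over 29045 genes and a threshold of 0.01. Fold changes are on that log2 scale. Each test was 2-sided. On simulated counts for 29045 genes, 186 of 200 genes changed 2-fold were called in 0X against 1X with 2 false calls, 199 with 5 in 10X against 1X and 199 with 14 in 0X against 10X. Alternatives were other pseudocounts, filters and scalings, all 3 groups in one fit, a replicate block, edgeR 4.0.16 and DESeq2 1.42.0 on recovered reads, leaving out libraries, and members without exon overlap. Removal of length and GC trends was added after the data were seen, fitted over genes with a mean of 50 or more, or over protein-coding genes with a mean of 500 or more. Pairs of libraries of a group differed by chi-square values per degree of freedom of 3.53 to 14.7, so none was a duplicate.

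Members were named by rank of change among called genes whose library values did not overlap between groups, by opposite calls, by highest and lowest level per kilobase, and 6 by name (MRPL12, MRPS18A, MRPS18B, MRPS18C, MRPS30 and MRPL58). Genes shown for a promoter motif, MRPS11 and MRPS22 were named after their values were seen. The members and lists were chosen with earlier results of these data known. Gene models are those of GENCODE 44, and promoter windows are RefSeq's. Protein sequences were not used here.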

Additional observations from a re-analysis of the deposited data

Results flagged for a closer look

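The highest or lowest library stood apart from the other 3 in 4 of the 52 groups of 4 libraries examined for the named members, by a gap whose share of the group's range passed Dixon's limit, where about 2.6 would be so by chance. In 1X-Cys replicate 1, MRPS18B measured 3124 normalised counts (others 2733 to 2774, gap 0.895 of the range), MRPS27 4988 (others 4478 to 4521, gap 0.917) and MRPS36 1097 (others 964 to 987). In 10X-Cys replicate 4, MRPS17 measured 549 (others 632 to 648, gap 0.831). No call of these 4 genes against 1X-Cys changed when the library concerned was left out.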

How the results depend on the processing

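The number of members called in 0X-Cys against 1X-Cys, 26 in all, fell to 5 without the filter on low values and to 14 among the members with no exon overlap, and lay between 6 and 37 when single libraries were left out (without 0X-Cys replicate 1 and replicate 2, without 1X-Cys replicate 2 and replicate 3). The median of the members there lay between -0.20 and -0.13, and the difference of large and small subunit medians between -0.09 and 0.00, the latter without 0X-Cys replicate 2. That difference was -0.05 with quantile normalisation, -0.02 and -0.03 with the length and GC trend of protein-coding and of all genes removed, and 0.03 without overlapping members, where its sign turned.

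In 10X-Cys against 1X-Cys, 58 members were called, 29 of them among those without overlap and 53 to 61 with a library left out. The median was -0.30 with equal totals, -0.25 with the protein-coding trend removed and -0.43 to -0.38 with a library left out. The subunit difference was -0.08 without overlap, -0.04 with MRPS18A and MRPS30 moved, -0.05 with the protein-coding trend removed and -0.12 to -0.07 with a library left out. In 0X-Cys against 10X-Cys, 45 were called, 20 without overlap and 38 to 44 with a library left out. The median was 0.12 with equal totals, 0.18 with quantile normalisation and without overlap, 0.15 with the protein-coding trend removed and 0.18 to 0.26 with a library left out. The subunit difference was 0.08 with quantile normalisation, 0.10 without overlap, 0.01 with MRPS18A and MRPS30 moved, 0.02 with the protein-coding trend removed and 0.05 to 0.07 with a library left out. Counts without overlap are lower because fewer genes enter, and the cause of the other shifts was not tested.

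With the protein-coding trend removed, values of 5 named members turned sign, namely MRPS18A in 10X-Cys against 1X-Cys (0.22) and, in 0X-Cys against 10X-Cys, MRPL27 (-0.13), MRPL46 (-0.22), MRPL58 (-0.19) and MRPS7 (-0.01). No pairing by replicate number was seen, as deviations of same-numbered libraries correlated between -0.0281 and 0.0392. These correlations ran over all genes kept, where counting error of low genes can hide a shared shift, so pairing was not excluded. With the replicate block 36 members were called in 0X-Cys, 59 in 10X-Cys and 43 in 0X-Cys against 10X-Cys, the medians were -0.19, -0.40 and 0.21, and the subunit difference in 0X-Cys was -0.03.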
